A study of Mus musculus with 3 samples.

Results

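Cytokine genes of the myeloid compartment were followed through the leukocytes of inflamed NOD islets. They were 10 of the 32285 genes in the count matrices, taken as a named list: Il1b, Il1a and Il1rn of the IL-1 system, Il6, Il12a, Il12b and Il27 of the IL-6 and IL-12 families, Il18, Tgfb1 and Igf1. NOD mice develop autoimmune diabetes spontaneously as leukocytes infiltrate the islets. Live CD45+ cells, which are leukocytes, were sorted from islets of wild-type female NOD mice and made into 3 single-cell RNA libraries, called replicates 1, 2 and 3 here. Each library came from islets pooled from 2 to 3 mice of 15 to 16 weeks in the study's methods (14 to 16 weeks in a legend), so a library and not a mouse is the unit. There was 1 condition and no treated or control group, and the comparisons below are between cell classes of the same libraries.

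The IL-1 cytokines act through a receptor on many cell types. IL-1β is made as a precursor that an inflammasome protease must cut, IL-1α is active as made, and the product of Il1rn occupies the receptor without signaling. IL-6, IL-12 and IL-27 shape the differentiation of T cells, IL-18 raises interferon-gamma output, TGF-β1 restrains lymphocytes after release from a latent complex, and IGF-1 is a growth factor that tissue macrophages can make.

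Cells with at least 1000 UMIs (unique molecular identifiers, 1 per captured transcript) and under 10% mitochondrial UMIs were placed in 5 classes from raw UMIs of a few genes that are not cytokines. The macrophage class (C1qa and C1qb together at 5 or more) held 68 cells with 10 to 31 per library. The dendritic class (Flt3, Zbtb46, Xcr1, Clec9a and Cd209a together at 2 or more, with little C1q) held 211 cells with 43 to 105 per library. The B class (Cd79a at 2 or more, no Cd3e) held 4936 cells, the CD8 T class 3258 and the CD4 T class 6729, both with Cd3e and with 1 co-receptor only. Levels are given as CPM, the UMIs of a gene per 1000000 UMIs of the class in a library. Such a level cannot tell fewer positive cells from less RNA per cell.

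The libraries held 5844, 9537 and 11566 cells with 33851381, 74775394 and 80806452 UMIs, and 2140 to 5100 cells per library entered no class. Pairs of libraries shared 12 to 29 cell barcodes, at most 0.308% of a library. The macrophage class carried its 9 markers at a summed 11810 to 15950 CPM against 308 to 657 CPM in the dendritic class, although Mertk had only 3 UMIs. The 8 dendritic markers summed to 10400 to 13040 CPM in the dendritic class and 10390 to 12180 CPM in the macrophage class, where H2-Ab1 supplied most of it. Ccr7 was at 606 ± 258 CPM in dendritic cells and 107 ± 10.6 CPM in macrophages (SD, n = 3). Among markers of other cells, the 4 plasmacytoid dendritic markers summed to 1295 to 3221 CPM in the dendritic class, and the 6 endocrine markers to 7.93 to 1372 CPM in the macrophage class. S100a8, the abundant neutrophil gene, had 0 UMIs in both classes, and the 6 B markers summed to at most 95.1 CPM in macrophages and 221 CPM in dendritic cells. The part of these markers in the cytokine results was not tested, except where values in cells without them are given.

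On GRCm38 the genes lie on 7 chromosomes, and 3 of them on chromosome 2. Il1b (ENSMUSG00000027398, chr2:129364570-129371139) and Il1a (ENSMUSG00000027399, chr2:129299610-129309972) are neighbors on the minus strand, 54.6 kb apart. Il1rn (ENSMUSG00000026981, chr2:24336853-24351494, plus strand) lies 104.9 Mb from Il1a on the same chromosome. Il6 is at chr5:30013114-30019981, Il12a at chr3:68690644-68698547, Il12b at chr11:44400063-44414033, Il18 at chr9:50554827-50581840, Il27 at chr7:126589010-126594941, Tgfb1 at chr7:25687002-25705077 and Igf1 at chr10:87858265-87937042. Only the promoters of the 3 IL-1 genes, which are treated first below, are shown. They are RefSeq entries on GRCm38.p6 (9 of the 10 genes had one), each with 250 bases before and 50 bases from the start site, read 5′ to 3′ on the gene's strand, and capitals mark every match of the 6 short motifs searched on both strands.
Il1b, chr2:129371090-129371389, minus strand: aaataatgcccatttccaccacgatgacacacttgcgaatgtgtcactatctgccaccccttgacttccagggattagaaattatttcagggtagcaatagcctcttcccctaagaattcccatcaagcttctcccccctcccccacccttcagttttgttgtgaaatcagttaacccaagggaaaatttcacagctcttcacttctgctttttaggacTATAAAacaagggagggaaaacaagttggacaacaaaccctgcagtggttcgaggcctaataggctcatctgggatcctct
Il1a, chr2:129309923-129310222, minus strand: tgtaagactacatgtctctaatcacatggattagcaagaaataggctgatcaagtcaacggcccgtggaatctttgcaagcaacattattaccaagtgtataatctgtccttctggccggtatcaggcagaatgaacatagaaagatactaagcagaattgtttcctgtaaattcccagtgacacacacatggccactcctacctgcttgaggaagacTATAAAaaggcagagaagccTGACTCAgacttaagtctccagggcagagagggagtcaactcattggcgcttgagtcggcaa
Il1rn, the most downstream of 3 listed start sites, chr2:24345121-24345420, plus strand: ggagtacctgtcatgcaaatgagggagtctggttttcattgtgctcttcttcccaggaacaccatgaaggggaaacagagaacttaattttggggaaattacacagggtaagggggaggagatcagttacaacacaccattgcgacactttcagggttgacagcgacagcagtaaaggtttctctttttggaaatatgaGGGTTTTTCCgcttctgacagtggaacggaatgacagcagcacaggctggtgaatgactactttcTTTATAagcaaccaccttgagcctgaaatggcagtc
The capitals in the Il1b promoter are a TATAAA element from -31 to -26. The Il1a promoter had TATAAA from -32 to -27 and TGACTCA, the reverse complement of the AP-1 letters TGAGTCA, from -12 to -6. The Il1rn promoter shown had a match of the NF-kB-type letters, GGG and CC with any 5 bases between them, from -51 to -42 and a reversed TATAAA after the start. The most upstream Il1rn start site, not shown, had TGAGTCA from -141 to -135 and the NF-kB-type letters from -54 to -45 and -4 to 5. The middle site had the NF-kB-type letters from 29 to 38. Among 32851 promoters of the same length, 13.6% held TATAAA, 5.2% TGAGTCA and 50.8% the NF-kB-type letters, so the last is a frequent match and each match is a description only. The PU.1 core GAGGAAGT, the interferon-stimulated letters, GAAA repeated after any 2 bases, and the C/EBP palindrome TTGCGCAA, held by 3.2%, 3.44% and 0.183% of promoters, were not in these windows for the 9 genes.

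Macrophages and dendritic cells both carried high Il1b, while Il1rn and Il1a separated them. Il1b was at 740, 785 and 729 CPM in the macrophages of replicates 1, 2 and 3, and at 829, 969 and 1208 CPM in the dendritic cells. All 3 dendritic values lay above all 3 macrophage values, but the fitted difference of -0.39 on the log2 scale (SE 0.45) did not pass (adjusted p = 0.623, edgeR's quasi-likelihood test). The macrophage value rested on 416 UMIs in 32 cells, of which 10 cells held 77.2%, and it was 552 CPM under stricter class gates. The dendritic value rested on 2564 UMIs in 115 cells.

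**Figure D1:**
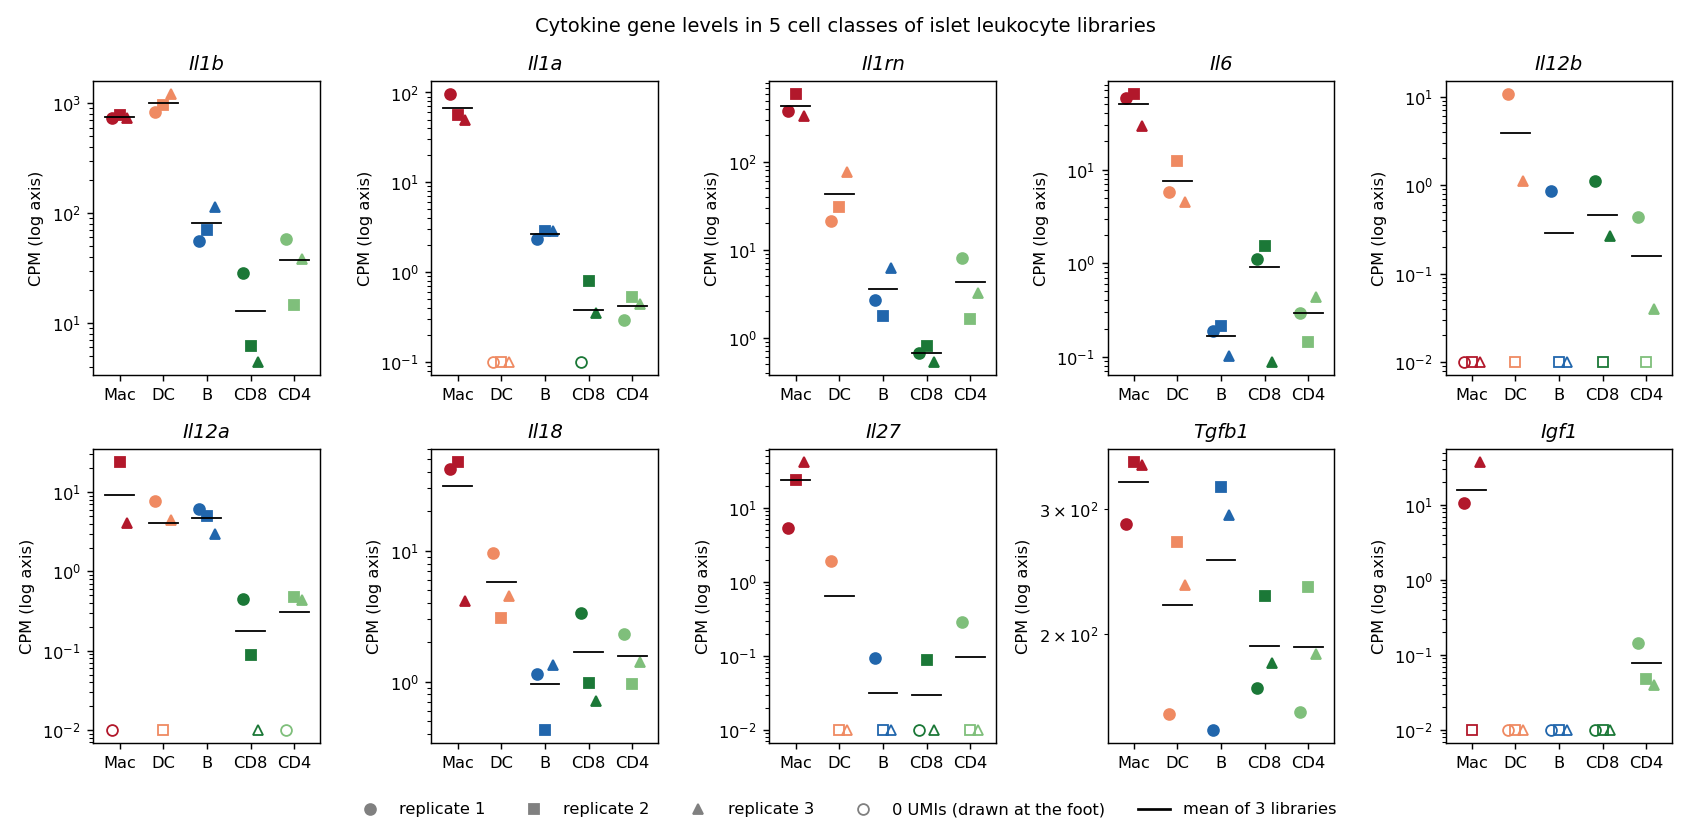
Level of each of the 10 genes (y axis, CPM on a log axis) in macrophage (Mac), dendritic (DC), B, CD8 T and CD4 T cells; each symbol is 1 library, the line is the mean of 3 libraries, and open symbols at the foot stand for 0 UMIs. Il1b is high in both myeloid classes, Il1a is at 0 UMIs in dendritic cells, and Tgfb1 lies between 146 and 349 CPM everywhere.

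Il1rn, the receptor antagonist, was at 375, 587 and 330 CPM in macrophages and 21.2, 30.6 and 77.8 CPM in dendritic cells. The groups did not overlap, and macrophages were higher by 3.37 on the log2 scale (SE 0.48, edgeR adjusted p = 8.5e-05). This call was kept under each alternative that could be fitted. In macrophages the 225 UMIs lay in 37 cells with at most 26 in 1 cell, whereas in dendritic cells 1 of the 21 positive cells held 34.2% of the 111 UMIs.

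Set against Il1b in the same sum, where the scaling to total UMIs cancels, Il1rn UMIs were 50.7, 74.8 and 45.2% of Il1b UMIs in macrophages and 2.56, 3.16 and 6.44% in dendritic cells. The classes differed by 3.90 ± 0.95 on the log2 scale (SD, n = 3), in the same direction in 3 of 3 libraries. The exact sign-flip test over 3 libraries gave p = 0.25, the smallest it can give. Capture can differ between the 2 genes, so only the difference between classes is read, not the ratio itself.

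**Figure D2:**
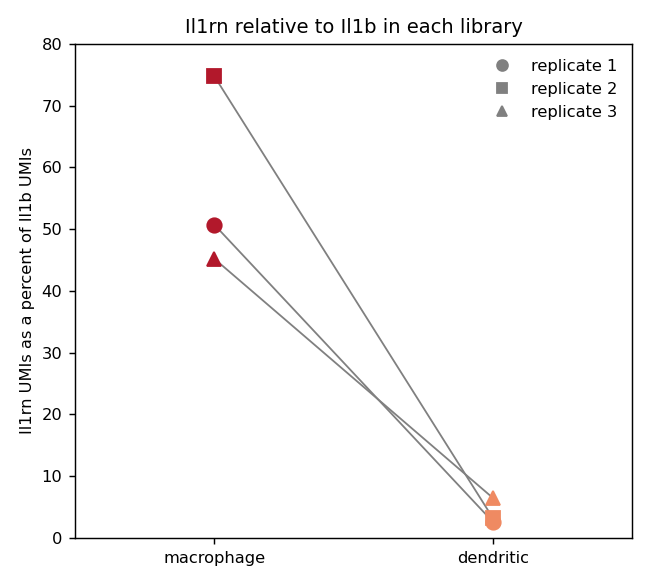
Il1rn UMIs as a percent of Il1b UMIs (y axis) in the macrophage and dendritic classes, with a line joining the values of each of the 3 libraries. Macrophages sit between 45.2 and 74.8% and dendritic cells between 2.56 and 6.44%.

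Il1a, the second IL-1 receptor agonist, was at 95.1, 55.5 and 49.4 CPM in macrophages (37 UMIs in 18 of 68 cells). It had 0 UMIs among the 2577472 of the dendritic class. A floor of 3 UMIs per library corresponds to 2.89, 4.59 and 3.38 CPM in the dendritic cells of replicates 1, 2 and 3, and the macrophage values lay above it in all 3 libraries. The dendritic cells thus held Il1b at a high level without detectable Il1a. B cells, at 2.37, 2.84 and 2.86 CPM, lay below that floor in each library. They were called higher than dendritic cells in the fit (edgeR adjusted p = 0.0190), but not without replicate 2 (0.0684) or without replicate 3 (0.107). Intervals and floors here cover counting error only.

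The rest of the IL-1 machinery, a list of 12 genes, had 3 genes higher and 1 lower in macrophages than in dendritic cells. Over the 12055 genes tested 18.1% passed and 8.8% were higher in macrophages. The median log2 difference was 0.75 for the list against -0.24 for all genes. Nlrp3, the inflammasome sensor, was at 403 ± 244 against 34.7 ± 14.2 CPM (log2 3.58, adjusted p = 8.06e-07). Casp4, which encodes the caspase of the noncanonical inflammasome, differed by 3.26 and Irak3, an inhibitor of IL-1 receptor signaling, by 4.18. Il1r2, the decoy receptor that binds IL-1 without signaling, went the other way, at 18.6 ± 12 CPM in macrophages and 692 ± 238 CPM in dendritic cells (log2 -5.35, edgeR adjusted p = 4.98e-08). Macrophages were therefore high in the antagonist gene and dendritic cells in the decoy receptor gene. Casp1, Pycard and Gsdmd, which carry out maturation and release of IL-1β, did not pass, with log2 differences of 0.77, 0.41 and 0.65.

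Counted over the list, 8 of the 10 genes had enough UMIs for the test, and Il12b and Igf1 did not. Between macrophages and dendritic cells 6 of the 8 passed, all higher in macrophages, where 18.1% of the 12055 genes passed in either direction and 8.8% were higher. Against B cells 6 of 8 passed (33.4% of genes passed and 16.1% were higher), against CD8 T cells 8 of 8 (34.3 and 16.2%) and against CD4 T cells 8 of 8 (33.6 and 15.4%), each higher in macrophages. Dendritic cells differed in 5 of 8 from B cells (43.5% of genes), in 5 from CD8 T cells (46.5%) and in 5 from CD4 T cells (46.1%). A gene low in most classes passes the filter only through the class in which it is high, so these counts describe the list and support no statement about it. Leaving out replicate 1 took the count between macrophages and dendritic cells from 6 to 2, leaving out replicate 2 took it to 3, and cells with markers of 1 lineage only gave 3.

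Of the IL-6 and IL-12 families, Il6 and Il27 were highest in macrophages. Il6 was at 58.1, 63.4 and 28.8 CPM in macrophages and 5.78, 12.2 and 4.51 CPM in dendritic cells, without overlap (log2 2.83, SE 0.64, edgeR adjusted p = 0.00488). These were 26 UMIs in 9 cells and 18 UMIs in 8 cells, and without replicate 1 the difference did not pass (adjusted p = 0.102). Dendritic cells exceeded CD8 T cells by 3.03 (adjusted p = 0.00181), and the B and T classes were all below 1 CPM on average. The 23 Il6 UMIs of CD8 T cells lay in 4 cells, and 1 cell of replicate 2 held 16 of them. Of the 23 UMIs, 21 fell among the 24 CD8 T cells with 5 or more UMIs of the myeloid genes Lyz2, Fcer1g, C1qa, C1qb and C1qc.

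Il27, which encodes the p28 subunit of IL-27, was at 5.29, 23.8 and 41.2 CPM in macrophages, from 14 UMIs in 7 cells. Dendritic cells had 2 UMIs in 1 cell and the lymphoid classes 1 or 2 UMIs each. The macrophage value of replicate 1 lay under its 3-UMI floor of 15.9 CPM. That of replicate 2 lay at its floor of 23.8 CPM, with 3 UMIs in 1 cell. The difference from dendritic cells was 5.03 (SE 1.21, edgeR adjusted p = 0.00743) and did not pass without replicate 2 (adjusted p = 0.0546). Without replicate 1, without replicate 3 and in cells with markers of 1 lineage only, Il27 had too few UMIs for the test. It entered the fit through macrophages only, so its call is a description. Ebi3, the partner subunit, was at 16.6 ± 7.48 CPM in macrophages and 10.6 ± 6.16 CPM in dendritic cells.

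Il12b, the p40 subunit shared by IL-12 and IL-23, was rare, with 51 UMIs in all cells and none in replicate 2. The dendritic class held 12 of them in 4 cells, at 10.6, 0 and 1.13 CPM, and all 4 cells carried Ccr7 or Fscn1 UMIs. Macrophages had 0 UMIs, but at 558022 UMIs a floor of 3 UMIs lies above the dendritic level, so no difference was detectable at this depth. A single B cell held 9 UMIs and a single cell outside the classes 17.

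Il12a, the p35 subunit, was mostly a B-cell transcript by count. It was at 6.16, 4.98 and 2.96 CPM in B cells (164 UMIs in 139 cells, at most 3 per cell), 64.1% of its 256 UMIs. In dendritic cells it was at 7.71, 0 and 4.51 CPM from 12 UMIs, and in macrophages at 0, 23.8 and 4.12 CPM from 4 UMIs in 2 cells. The 3 classes overlapped, and the difference of B cells from dendritic cells did not pass (log2 0.09, SE 0.72, adjusted p = 0.932). B cells were higher than CD4 T cells by 3.53 (edgeR adjusted p = 6.16e-05) and than CD8 T cells by 5.13 (adjusted p = 4.88e-05). The calls of macrophages over T cells for this gene were lost without replicate 2 (edgeR adjusted p = 0.451 against CD4 T and 0.332 against CD8 T). Both were also lost without replicate 3 and in cells with markers of 1 lineage only.

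Among 11 receptor, partner and signaling genes of these families, 9 were tested. Socs3, a feedback inhibitor of IL-6 signaling, was higher in macrophages than in dendritic cells (453 ± 185 against 52.3 ± 16 CPM, log2 3.24). Stat3, Stat4 and Il12rb2, a chain of the IL-12 receptor, were lower, by -1.02, -2.96 and -3.84. Il12rb1, the other chain, had 0 UMIs in macrophages and 1 in dendritic cells.

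Il18 was at 42.3, 47.6 and 4.12 CPM in macrophages (15 UMIs in 11 cells) and 9.64, 3.06 and 4.51 CPM in dendritic cells. The groups overlapped through replicate 3. The fitted difference was 2.28 (SE 0.73, edgeR adjusted p = 0.0390), and it did not pass without replicate 1 (adjusted p = 0.230), without replicate 2 (0.274), without the library block (0.087) or in cells with markers of 1 lineage only (0.0779). Dendritic cells were above CD8 T cells by 1.93 (adjusted p = 0.0236). That call was lost without the block (0.0572), under stricter class gates (0.0966), in cells of 1 lineage (0.052) and without replicate 1 (0.163), 2 (0.0509) or 3 (0.0646). The lymphoid classes lay between 0.963 and 1.68 CPM on average. Il18bp, the soluble inhibitor of IL-18, was higher in macrophages than in dendritic cells (49.3 ± 33.6 against 12.4 ± 5.86 CPM, log2 2.02, adjusted p = 0.00704). The receptor genes Il18r1 and Il18rap lay mainly in T cells, with Il18r1 at 76.6 ± 4.77 CPM in CD4 T cells and 0 UMIs in macrophages.

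Tgfb1 was measured at a similar level in every class, and its largest fitted difference between any 2 classes was 0.87 on the log2 scale. It was at 285, 349 and 346 CPM in macrophages, 154, 269 and 235 CPM in dendritic cells and 146, 322 and 294 CPM in B cells. CD8 T cells had 168, 226 and 182 CPM and CD4 T cells 155, 233 and 187 CPM. Replicate 1 was the lowest library in all 5 classes, and no pair of neighbors in the order macrophage, B, dendritic, CD8 T, CD4 T passed the test. Macrophages were above dendritic cells by 0.66 (SE 0.19, edgeR adjusted p = 0.0209, or 0.196 without the library block), a call that was also lost without any 1 of the 3 libraries (adjusted p 0.0582 to 0.134). They were above CD4 T cells by 0.87 (adjusted p = 0.00123) and CD8 T cells by 0.77 (adjusted p = 0.00303, or 0.0689 without the block).

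Around Tgfb1, 13 of 16 listed genes were tested and 5 were higher in macrophages than in dendritic cells, with none lower. They were Tgfbi, a TGF-β-induced matrix gene (509 ± 259 against 40.5 ± 23.3 CPM, log2 3.71), Itgav, an integrin subunit that can release latent TGF-β (log2 2.27), Furin, the protease that cuts the precursor (2.23), the receptor gene Tgfbr1 (1.44) and Skil (1.01). The median of the 13 was 1.22 against -0.24 over all genes, of which 8.8% were higher in macrophages. Itgb8, the partner of Itgav in latent TGF-β release, was highest in CD4 T cells at 29.1 ± 6.18 CPM.

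Igf1 had 20 UMIs in all. Macrophages held 11 of them in 6 cells, at 10.6, 0 and 37.1 CPM, and 6 of the 11 were in 1 cell. Replicate 3 held 9 of the 11, and the values of replicates 1 and 2 lay under the 3-UMI floor of their macrophage sums (15.9 and 23.8 CPM). The dendritic, B and CD8 T classes had 0 UMIs, and no fold is given. Of 5 tested genes of the IGF system, Igfbp4 (log2 5.79) and Irs2 (1.95) were higher in macrophages than in dendritic cells. Over all genes 8.8% were higher in macrophages.

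Of 9 other cytokine genes of myeloid cells, 6 were higher and 1 lower in macrophages than in dendritic cells. Over all genes tested 18.1% passed and 8.8% were higher in macrophages. The list was chosen with earlier results known, so the count describes the list only. Tnf was at 1018 ± 500 CPM in macrophages and 6.17 ± 2.86 CPM in dendritic cells (log2 7.37, edgeR adjusted p = 2.02e-08). Il10, an anti-inflammatory cytokine, was at 89.7 ± 28.2 against 0.752 ± 1.30 CPM. Il15, Csf1, Osm and Pdgfb were also higher, and Il16 was lower by -3.48. Osm rested on 8 UMIs in macrophages and 3 in dendritic cells (11.4 ± 15.4 against 1.40 ± 1.55 CPM). Il1b, by contrast, had a higher mean in dendritic cells than in macrophages, a difference that did not pass.

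Within the dendritic class most Il1b, Il1rn, Il6 and Il12b UMIs lay in cells with Ccr7 and Fscn1, genes of mature, migratory dendritic cells. Most of the few Il12a and Il18 UMIs did not. This split was chosen after the values were seen. Cells with 3 or more UMIs of both genes together numbered 92 (40, 21 and 31 per library) against 119 others. Il1b was at 1142, 1468 and 2063 CPM in them and 588, 407 and 312 CPM in the others, without overlap (log2 1.98, SE 0.27, edgeR adjusted p = 0.000685). Il1rn was at 39.8, 49.1 and 152 CPM against 6.83, 9.76 and 0 CPM, again without overlap (log2 3.87, adjusted p = 0.00188), but DESeq2 gave an adjusted p of 0.0934.

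All 18 Il6 UMIs and all 12 Il12b UMIs of the dendritic class lay in the Ccr7/Fscn1 cells, whereas 11 of its 12 Il12a UMIs and 11 of its 16 Il18 UMIs lay in the others. Tgfb1 did not pass (131, 263 and 192 against 173, 277 and 279 CPM, log2 -0.19, adjusted p = 0.616). The others held 307 of its 544 UMIs and were 119 of the 211 cells. Over this comparison 12.3% of 4877 genes passed, and 2 of the 3 cytokine genes tested. Il1r2 was also higher in the Ccr7/Fscn1 cells, at 934 against 426 CPM (log2 1.15, adjusted p = 0.0259). The Ccr7/Fscn1 cells had a median of 10210, 16510 and 14750 UMIs and the others 8185, 13880 and 13170.

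**Figure D3:**
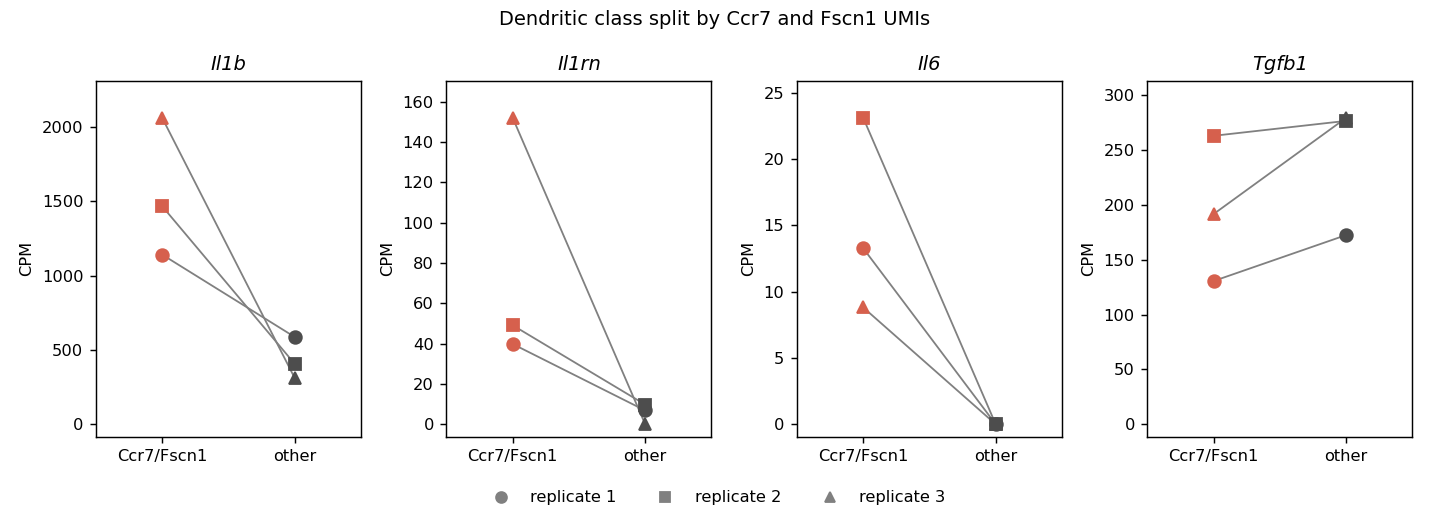
Levels of Il1b, Il1rn, Il6 and Tgfb1 (y axes, CPM) in dendritic cells with 3 or more Ccr7 and Fscn1 UMIs and in the other dendritic cells, with a line joining the values of each of the 3 libraries. Il1b, Il1rn and Il6 are higher in the Ccr7/Fscn1 cells of all 3 libraries, and Tgfb1 is slightly lower in them.

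Genes that rose most with this split included H2-M2, Cd63, Nrp2, Il4i1 and Mreg. Those that fell most included Tlr7, Ly6d, Ly6c2, Ctsl and Klk1. Siglech, a plasmacytoid dendritic marker, was at 71.8 CPM in the Ccr7/Fscn1 cells and 874 CPM in the others (log2 -3.38), so the 2 sides differ in more than Ccr7, and its part in the difference was not tested. Il1b was also found in 11 of the 24 Xcr1/Clec9a cells (491 ± 461 CPM), of which replicate 3 had only 1 cell, with 0 Il1b UMIs. It was found in 3 of the 15 Cd209a cells (407 ± 254 CPM), 1 in each library. These gates of the 2 conventional dendritic types held too few cells for a test.

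Cell by cell, after each cell was thinned to 2000 UMIs, Il1b was detected in 33.7 ± 8.01% of macrophages and 40.4 ± 6.10% of dendritic cells (SD, n = 3). Without thinning the shares were 51.7 and 53.5%. In the dendritic class Il1rn was found in 11 of 87 cells with Il1b and in 0 of 122 cells without it, a difference of 13.7 ± 4.5 points in 3 of 3 libraries (exact sign-flip p = 0.25, the smallest possible). In macrophages Il1rn was found in 9 of 23 cells with Il1b and 15 of 44 without it, and the library shares differed by -1.94 ± 27.8 points, less than their spread.

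When macrophages were split by Il1b, Ccl2, Cxcl2 and Cxcl9, genes of chemokines for monocytes, neutrophils and T cells, were higher in the cells with Il1b. These were 3 of 313 genes tested (0.958%), from 23 cells with and 44 without. The cells with and without Il1b numbered 13 and 18 in replicate 1, 3 and 6 in replicate 2, and 7 and 20 in replicate 3, so 3 of the 6 sums held fewer than the 10 cells required of the dendritic gates. Ccl2 differed by 1.40 (3607 against 1153 CPM, edgeR adjusted p = 0.00125), Cxcl2 by 1.24 and Cxcl9 by 1.17. The 3 calls were lost with DESeq2, without the library block, and in cells with markers of 1 lineage only, where Ccl2 and Cxcl9 had log2 differences of -0.23 and -0.43.

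B cells held more Il1b than CD8 T cells. Most of it lay in cells with none of 5 myeloid transcripts, but these were an even larger share of the B cells. Il1b was at 56.3, 70.6 and 115 CPM in B cells, 58.2, 14.5 and 38.3 CPM in CD4 T cells and 28.3, 6.22 and 4.40 CPM in CD8 T cells. B and CD4 T cells overlapped through replicate 1, and B cells did not overlap with CD8 T cells. B cells were lower than macrophages by 3.15 on the log2 scale (adjusted p = 5.46e-05).

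Against CD8 T cells the B class was higher by 2.97 (edgeR adjusted p = 9.11e-05) and against CD4 T cells by 1.40 (SE 0.43, adjusted p = 0.0139). The second call was lost without the library block (adjusted p = 0.0824), without replicate 2 (0.161) and without replicate 3 (0.0759). In these comparisons 5 of 8 cytokine genes passed against CD8 T cells (43.9% of all genes), with Il6 lower and the others higher in B cells, and 4 of 8 against CD4 T cells (46.8%). CD8 and CD4 T cells differed in 1 of the 8, Il1b (log2 -1.57, adjusted p = 0.0460), where 9.43% of genes passed, and not without the block (adjusted p = 0.196), without replicate 2 (0.137) or without replicate 3 (0.434).

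Cells were then divided by their UMIs of Lyz2, Fcer1g, C1qa, C1qb and C1qc, of which a lymphocyte should hold few. In the B class 85.7% of 2713 Il1b UMIs lay in cells with 0 such UMIs, and per library 72.7, 95.1 and 84.2%. These were 4781 of the 4936 B cells, so their share of the Il1b UMIs was below their share of the class. Of the 4781 cells 411 held Il1b, or 8.60%. Among CD8 T cells with 0 such UMIs the share was 0.976% and among CD4 T cells 1.65%, although the median depth of CD8 T cells (5397 to 7665 UMIs) was above that of B cells (4309 to 6784). The T-cell shares were not read as expression, and whether they measure the background in B cells was not tested. B cells with Il1b after thinning to 2000 UMIs had median depths of 4988, 7807 and 6837 UMIs, against 4305, 6756 and 5866 without it. The B cell with the most Il1b held 39 of 594, 179 of 993 and 124 of 1126 UMIs in replicates 1, 2 and 3. The genes used here leave out Ccr7 and Fscn1, and the part of doublets with dendritic cells that carry them was not tested. With the top doublet scores removed, which kept 4797 of the 4936 B cells, mean B-cell Il1b was 81.3 CPM against 80.6 CPM. It was 61.5 CPM in B cells with markers of 1 lineage only and 48.5 CPM under the study's cell filter. Thinned to 2000 UMIs, the shares of all cells with Il1b were 5.54 ± 1.55% in B cells, 1.52 ± 0.896% in CD4 T cells and 0.877 ± 0.737% in CD8 T cells.

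**Figure D4:**
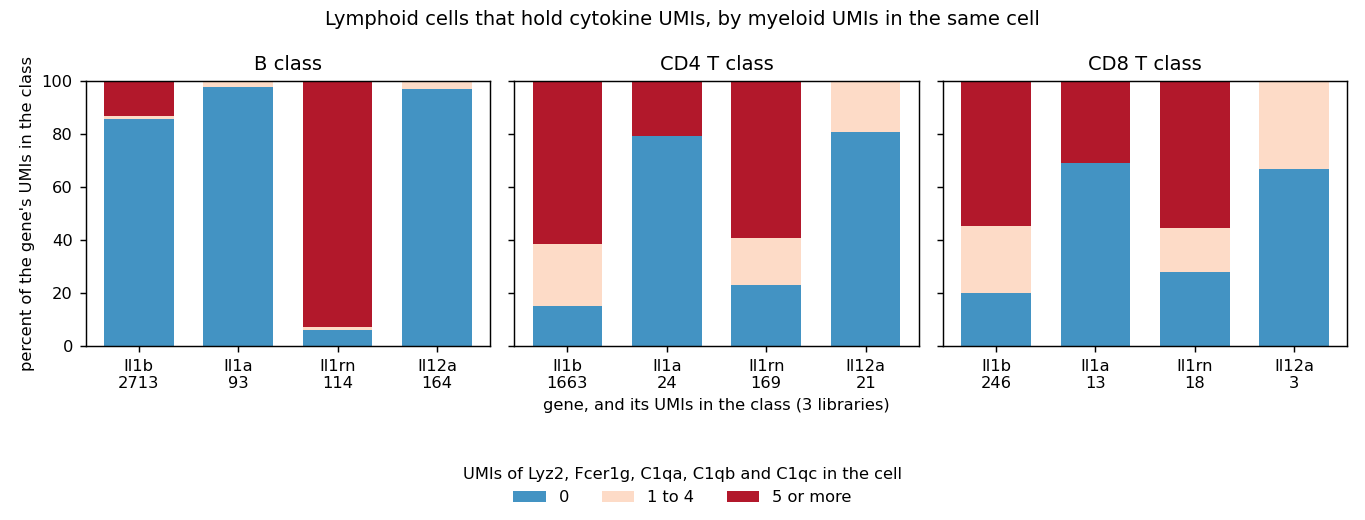
Share of the UMIs of Il1b, Il1a, Il1rn and Il12a (y axis, percent of the gene's UMIs in the class, with the UMI number under each bar) that lay in B, CD4 T and CD8 T cells with 0, 1 to 4, or 5 or more UMIs of 5 myeloid genes. In B cells 85.7% of Il1b lies in cells with none, which are an even larger share of the B cells, while 93.0% of Il1rn lies in the 41 cells with 5 or more.

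The T-cell values were placed differently. In CD4 T cells 61.5% of the 1663 Il1b UMIs lay in 81 cells with 5 or more myeloid UMIs and 15.1% in cells with none, and in CD8 T cells 54.9% of 246 lay in 24 cells. Il1rn in B cells followed that pattern, with 93.0% of its 114 UMIs in 41 cells, and its level was 3.55 ± 2.36 CPM in all B cells and 0.100 CPM in those with markers of 1 lineage only. There the call of B above CD8 T cells for Il1rn became -1.30 (adjusted p = 0.434), and Il6, called lower in B cells, became 1.16 (adjusted p = 0.543). For Il1a and Il12a in B cells, 97.9 and 97.0% of UMIs lay in cells with no myeloid UMI, close to the share of B cells that had none. Both were called higher than in CD4 T cells (log2 2.64, edgeR adjusted p = 0.000234, and 3.53). Tgfb1 was higher in B than in CD4 T cells by 0.47 (edgeR adjusted p = 0.0178), a call lost without the block (0.185), without replicate 2 (0.157), without replicate 3 (0.25) and without TMM scaling (0.0646).

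B cells with Il1b differed from those without it in 35 of 7430 genes (0.471%), a comparison added after the values were seen, with 264 cells against 4646 thinned to 2000 UMIs. Genes lower in the cells with Il1b included Jchain (log2 -7.25, 4.27 against 555 CPM), Igha (-5.50), Ighg2b (-4.73) and Igkc (-1.24, 3994 against 9438 CPM). The immunoglobulin genes among them are alike in sequence, and counting can divide their reads. Slpi, which is not an immunoglobulin gene, was lower too (7.45 against 151 CPM). The B gate did not set plasma cells apart, and their part in these differences was not tested. Apoe, a lipid carrier gene, was higher (514 against 138 CPM, log2 1.87, edgeR adjusted p = 3.14e-13), as were Lyz2 (5.59), Rsad2 (3.86), S100a4 (2.77), Ifitm3 (2.68), Ccl4 (2.24) and Cd9 (1.66). Apoe and Lyz2 are also among the macrophage markers used above.

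In B cells without UMIs of the T-cell and myeloid genes screened, Apoe stayed higher (1.27, adjusted p = 1.85e-06) and Jchain, Igha, Ighg2b and Igkc stayed lower. Ifitm3 and Cd9 did not pass there (adjusted p = 0.771 and 0.0717), and Ccl4 turned to -8.81. The myeloid genes of that screen were C1qa, C1qb, C1qc and Lyz2. Apoe RNA of myeloid cells could pass it, and its part was not tested. Tgfb1, the only cytokine gene of the list tested in this split, did not pass. It was detected in 44.6% of B cells with Il1b and 37.8% of those without, a difference of 6.79 ± 1.97 points in 3 of 3 libraries (exact sign-flip p = 0.25, the smallest possible).

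The 5 classes left out part of each gene's UMIs. Cells outside them with 5 or more UMIs of Lyz2, Fcer1g and Tyrobp together were set apart as other myeloid cells. They had no Cd3e, Ncr1 or Klrb1c UMIs and little Cd79a, and other lymphoid genes were not screened. These cells numbered 339 and held 24.0% of all 12101 Il1b UMIs at 952 ± 316 CPM, close to the macrophage and dendritic levels. They held 33.6% of the 1135 Il1rn UMIs at 126 ± 33 CPM, between macrophages and dendritic cells. Their Il1a was 1.00 ± 1.08 CPM. A further 14 cells with 10 or more S100a8 and S100a9 UMIs, a neutrophil-like gate, were at 4415 ± 1550 CPM for Il1b, the highest of any gate, from 210 UMIs in 12 cells. They numbered 1, 6 and 7 in replicates 1, 2 and 3, and the value of replicate 1 (6076 CPM) came from 7 UMIs in 1 cell.

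**Figure D5:**
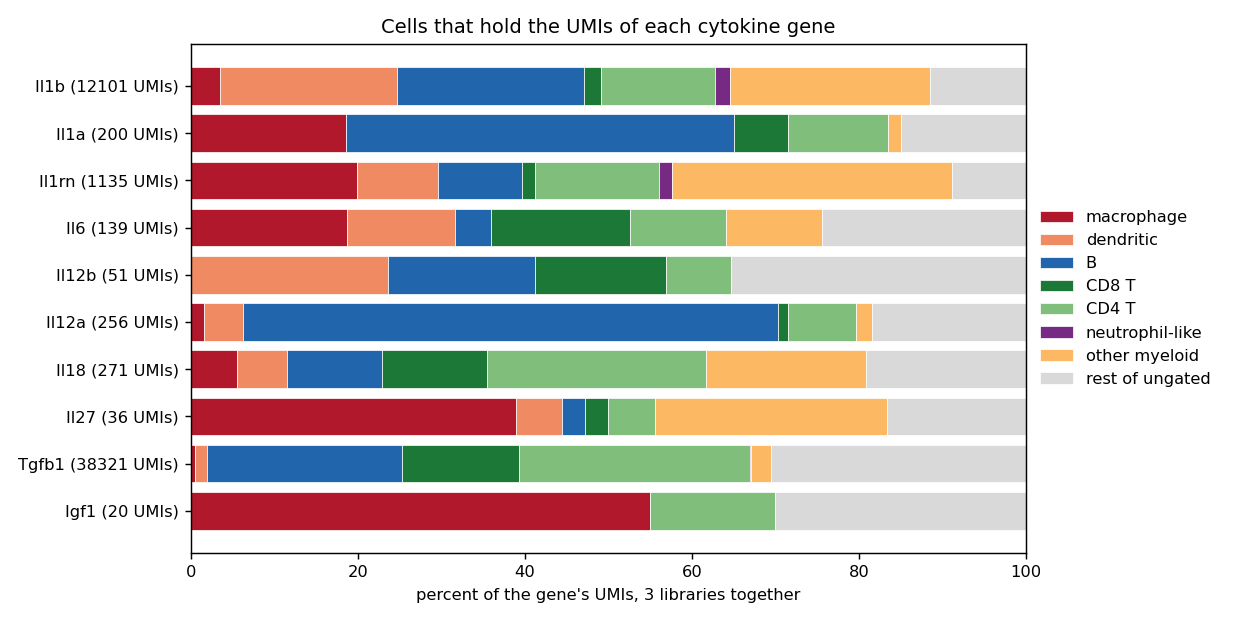
Share of each gene's UMIs, over 3 libraries together (x axis, percent, with the total beside each gene), that lay in the 5 classes, in neutrophil-like cells, in other myeloid cells and in the rest. Macrophages hold 38.9% of Il27 and 55% of Igf1 UMIs, B cells 64.1% of Il12a, and Tgfb1 is spread over the lymphoid classes.

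The order of the classes by mean level was therefore dendritic, macrophage, B, CD4 T, CD8 T for Il1b, where the first 2 did not pass the test against each other. It was macrophage, dendritic, CD4 T, B, CD8 T for Il1rn, where CD4 T against B cells did not pass (log2 -0.06, adjusted p = 0.934). Il6, Il18 and Il27 all began with macrophage and then dendritic, and their B and T neighbors did not pass against each other. For Il27 dendritic cells did not pass against CD4 T cells either (edgeR adjusted p = 0.138). For Il1a the order was macrophage, B, CD4 T, CD8 T, dendritic, where the T classes did not pass against each other (adjusted p = 0.963).

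Genes whose levels moved most like each cytokine over the 15 sums of class and library are named as a description, since the sums of a class share cells and depth. For Il1b they were Plbd1 (Pearson's r 0.98), Skap2 (0.98) and Spi1 (0.97), the last encoding the myeloid and B-cell transcription factor PU.1. For Il1rn they were Cd63, Ube2f and Pla2g7 (each 0.98), and for Il1a Selenbp1 (0.98), Dmxl2 and Mgst1 (each 0.97). Il6 was followed by Ifi211, Igsf6 and Cdc42ep2 (0.98 to 0.97), Il27 by Cp (0.98), Pi4k2a (0.97) and Parvb (0.96), and Il18 by Tmem205 (0.96), N4bp1 (0.94) and Lrrfip2 (0.93). The likeness was lower for Il12a, with Ccdc180 at 0.92 and Far1 and G6pc3 at 0.84, and for Tgfb1, with Irgm1 at 0.88, A930037H05Rik at 0.85 and Slfn8 at 0.84.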

How the data were processed

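RNA of sorted CD45+ islet cells was sequenced as 3 10x libraries. The authors deposited raw counts, UMIs per gene and cell, made with Cell Ranger (version 6.0.1 in the submitters' processing notes, mm10), with no normalization or cell types in the files used here. Cells were gated on raw UMIs. The study's own cell filter (200 to 5000 genes, under 6000 UMIs) was an alternative, since it keeps 23 macrophages and 9 dendritic cells. Doublets were not removed, except in an alternative that drops the top 7.6% of scrublet scores (scanpy 1.11.5).

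UMIs were summed per class and library (15 sums) and tested with edgeR 4.0.16 in R 4.3.3 (filterByExpr, TMM, quasi-likelihood test, library as a block, Benjamini-Hochberg over 12055 genes per comparison, threshold 0.05). DESeq2 1.42.0 was an alternative. The libraries pair the classes because they hold cells of the same pooled mice. Deviations from class means correlated at 0.41 on average within a library and -0.18 between libraries (3476 genes). Each class was centered on its own mean, so a positive value within libraries brings a negative one between them. The second value is therefore not separate evidence of pairing. The edgeR p-values of the class comparisons rest on the spread left over 15 sums of 3 libraries after the library block. That spread is shared by the classes and moderated across genes. A macrophage comparison therefore does not rest on the spread of macrophage sums alone. The study names 2 experiments, and the labels used here do not say which library came from which, so batch was not tested; descriptions set replicates 1 and 3 apart from replicate 2. Cells thinned to 2000 UMIs served for shares and splits, tested by exact sign flips or edgeR. Coordinates are from GENCODE M21.

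The genes and lists were chosen with earlier results of these data known. Named were all 10 cytokines, the 3 genes with the highest correlation to each, up to 10 called genes of at least 50 CPM per direction in a split, and the extremes of each pathway list; Il1r2 and Siglech in the dendritic split were added after their values were seen. The tests were also run on simulated counts without library effects, which does not show their error rate in these data. A planned split of macrophages by Igf1 was not run, as 1 of 67 thinned macrophages held Igf1, nor a fit of all dendritic sub-gates, as only Ccr7/Fscn1 had 10 cells in each library.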

Additional observations from a re-analysis of the deposited data

How the results depend on the processing

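Between classes 53 of the 80 cytokine gene tests passed. Those that passed were followed, with neighbors in the order of levels (at least 2 CPM in the higher class) and the Ccr7/Fscn1 split. Of these 64 differences 55 passed, a number set by that choice. Of the 55, 37 passed under every alternative that could be fitted, and 18 were lost in 1 or more. Under the study's cell filter too few macrophages and dendritic cells remained for a fit. The number of passing genes fell without the library block to 3456 (B against CD8 T), 3628 (B against CD4 T) and 374 (CD8 against CD4 T, and 688 under the study's filter). Counts of passing cytokine genes changed to 3 (macrophage against dendritic, cells of 1 lineage), to 2 (B against CD4 T, no block), and for CD8 against CD4 T to 0 (no block, stricter gates, 1 lineage) or 2 (no count filter). Under the study's filter only Il1b and Tgfb1 could be tested, and 2 of 2 passed in B against CD8 T, 2 of 2 in B against CD4 T and 0 of 2 in CD8 against CD4 T. The block changed no call other than those given beside the results and Il6 in B against CD8 T cells (adjusted p = 0.054 without it). The macrophage Il1b split gave 0 genes without the block, with DESeq2, with no count filter, thinned to 4000 UMIs and in 1 lineage. The B split gave 7 (no block), 21 (DESeq2), 123 (no count filter), 67 (4000 UMIs) and 19 (1 lineage), and the Ccr7/Fscn1 split 319 (no block) and 302 (DESeq2).

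Directions turned for Il12a, macrophage minus B (-1.25 in 1 lineage; -0.88 to 1.38 with 1 library left out, the lowest without replicate 2) and dendritic minus B (-0.76 to 0.43, the highest without replicate 2), for Il1rn (-1.30) and Il6 (1.16), B minus CD8 T in 1 lineage, and for Il1rn, B minus CD4 T: -0.02 (no block), -0.17 (DESeq2), -0.04 (no TMM, stricter gates), -3.27 (1 lineage, adjusted p = 0.00464), and -0.69 to 0.73 with 1 library left out (-0.07 and -0.69 without replicate 2 or 3). The causes were not tested.

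Leaving out 1 library gave, for passing genes, 906 to 1598 (macrophage against dendritic), 2623 to 3298 (B), 2636 to 3415 (CD8 T) and 2576 to 3327 (CD4 T), and 3397 to 6124 (B against CD8 T), 3692 to 6478 (B against CD4 T) and 410 to 1530 (CD8 against CD4 T). Cytokine counts were 2 to 4 (macrophage against dendritic), 3 to 5 (dendritic against CD4 T) and 2 to 4 (B against CD4 T). The macrophage split gave 0 to 1, the B split 19 to 45 and the Ccr7/Fscn1 split 312 to 700 genes. DESeq2 called 1278 genes higher and 851 lower in macrophages than in dendritic cells, against 1061 and 1125 in edgeR, and 2387 and 1613 against B cells, where edgeR gave 1940 and 2092. Without TMM the median of all genes shifted by -0.11 in B against CD4 T, where the Tgfb1 call was lost (adjusted p = 0.0646).

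Depth limits the rare genes most: Il12b, Igf1, Il27, Il12a and Il18 had at most 15 UMIs each in macrophages, and 68 macrophages stand behind every macrophage value.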
